A study of Mus musculus with 5 samples.

Results

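The genes described are 10 genes of oxygen sensing and of the response to low oxygen, taken by their symbols from a table of 21801 mouse genes, and all 10 were found: Hif1a, Epas1, Arnt, Hif1an, Egln1, Egln2, Egln3, Vhl, Vegfa and Bnip3. The samples are labelled as purified mouse neuroepithelial cells (NECs), the dividing epithelium of the early neural tube, with no account of how they were purified, and 5 RNA sequencing libraries of 1 group were available (replicates 1 to 5). No genotype, treatment, oxygen level or embryo age is given in the sources used here, and no second condition exists, so the values describe levels and not a response to oxygen. The labels leave unsaid if separate embryos or cultures were used, so p-values cover just the spread of these 5 libraries, and that spread may be technical.

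Hypoxia-inducible factor (HIF) is a transcription factor made of an alpha subunit, which is destroyed while oxygen is present, and a stable partner. Prolyl hydroxylases use oxygen to mark the alpha subunit, the VHL ubiquitin ligase reads that mark and sends the protein to the proteasome, and a separate asparaginyl hydroxylase blocks binding of coactivators. When oxygen falls the alpha subunit persists and switches on genes of glucose use, vessel growth and mitochondrial turnover, and because this control acts on the protein, transcript levels of its parts do not measure HIF activity. The early neural tube has no vessels of its own and is supplied by a plexus that forms around it.

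Levels are in FPKM, a fragment count divided by transcript length and by library size, and are given as the mean ± SD over the 5 libraries (n = 5). Dividing by length makes genes comparable only where reads cover transcripts evenly. Evenness was not checked for this amplified poly-dT cDNA, so comparisons of level between genes are approximate. A gene was called above or below 1 FPKM when limma's moderated test on log2(FPKM + 1), fitted over 19706 genes, gave a Benjamini-Hochberg adjusted p under 0.05. All log2 values given are of FPKM + 1, which understates ratios to 1 FPKM and between genes, most of all at low levels. Of the 10 genes 7 were above (52.3% of all tested genes were), 2 were below, Egln3 and Epas1 (41.4% of all tested genes were), and Vegfa was called neither way. The median of the 10 means was 8.01 FPKM and that of all tested genes 1.79 FPKM.

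**Figure D1:**
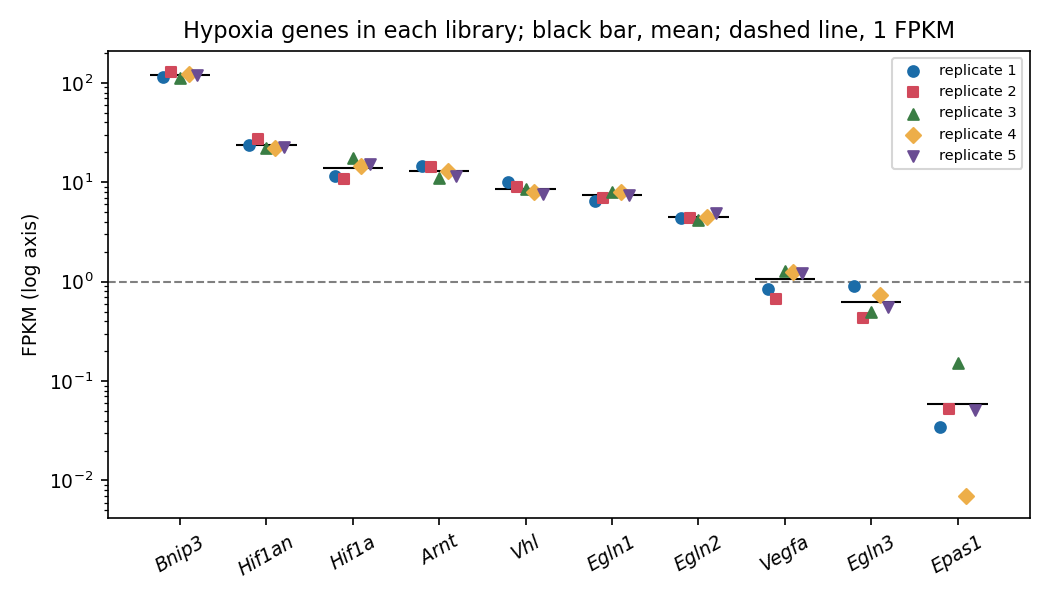
FPKM (log axis) of the 10 hypoxia genes, ordered by mean; each point is 1 of the 5 libraries, the black bar is the mean and the dashed line is 1 FPKM. Bnip3 lies between 113 and 129 FPKM in the 5 libraries, and Epas1 stays under 0.152 FPKM.

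Sums over marker genes describe what else the libraries held, and markers of mesenchyme and surface ectoderm were present beside those of neural progenitors. For the counts that follow, 52.3% of all tested genes were above 1 FPKM and 41.4% below. All 8 neural progenitor markers were above 1 FPKM, led by Prom1 at 88.1 ± 10.96, Pax6 at 64.6 ± 7.64 and Vim at 54.2 ± 8.38 FPKM, with a summed level of 247 to 293 FPKM per library. Of 10 mesenchyme markers 8 were above and 1 below, with sums of 39.3, 67.3, 142, 116 and 118 FPKM in replicates 1 to 5. Lum, at 42.6 ± 21.9 FPKM, Pdgfra, at 11.2 ± 4.57, and Pdgfrb, at 10.7 ± 3.89, were the highest of them. Of 8 surface ectoderm markers 7 were above and none below (sums 119 to 183 FPKM), and Krt18, Cdh1 and Krt8 were the highest. Of 8 neuron markers 5 were above and 3 below (sums 88.0 to 124 FPKM), with Tubb3, Gap43 and Map2 the highest. Endothelial, erythroid and myeloid markers had low sums, of 16.4 to 26.5, 2.91 to 10.1 and 1.01 to 3.35 FPKM.

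Among the HIF alpha subunits, the libraries carried Hif1a and hardly any Epas1. Hif1a (ENSMUSG00000021109, mm10 chromosome 12, 73901375 to 73947530), the broadly expressed alpha subunit, stood at 11.6, 10.8, 17.5, 14.7 and 15.4 FPKM in replicates 1 to 5, a mean of 14.0 ± 2.77. Its log2(FPKM + 1) exceeded that of 1 FPKM by 2.89 (SE 0.10, limma adjusted p = 3.4e-08). Replicates 1 and 2 held the lowest values and replicate 3 the highest.

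Epas1 (ENSMUSG00000024140, chromosome 17, 86753700 to 86833410) encodes the HIF2 alpha subunit, known for its expression in endothelium. It was at 0.0342, 0.0523, 0.152, 0.0069 and 0.0508 FPKM in replicates 1 to 5. With its longest transcript of 5516 bases these levels stand for about 4.16, 7.27, 16.6, 1.04 and 6.24 reads, so differences between the libraries rest on few reads. The highest value was in replicate 3, which also had the highest mesenchyme sum, whereas the endothelial sum was highest in replicate 4, where Epas1 rested on about 1 read. The part of these cells in the Epas1 level was not tested. Hif1a held between 99.1% and 99.95% of the summed FPKM of the pair in each library. The Hif1a minus Epas1 difference was 3.804 ± 0.24 on the log2(FPKM + 1) scale, with Hif1a higher in 5 of 5 libraries. In FPKM, Hif1a exceeded Epas1 by 115 to 2124 times, a ratio that rests on few Epas1 reads.

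Hif3a, the alpha-like subunit that can restrain HIF, was below 1 FPKM at 0.358 ± 0.101. 

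Arnt (ENSMUSG00000015522, chromosome 3, 95434388 to 95497240), the stable beta partner, was at 14.6, 14.2, 11.1, 13.0 and 11.5 FPKM, a mean of 12.9 ± 1.57 (limma adjusted p = 4.8e-09 against 1 FPKM). Its levels overlapped those of Hif1a. Hif1a minus Arnt was 0.10 ± 0.43 on the log2 scale, with Hif1a higher in 3 of 5 libraries (two-sided exact sign-flip permutation test, p = 0.625, adjusted 0.625), and without replicate 3 the mean difference was -0.03. In replicates 1 and 2 Arnt exceeded Hif1a, and in replicates 3, 4 and 5 Hif1a exceeded Arnt. Arnt2, the paralog known for neural expression, stood at 6.92 ± 0.19 FPKM, and Arnt exceeded it by 0.80 ± 0.16 in 5 of 5 libraries, by 1.63 to 2.18 times in FPKM.

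Pairs of genes were compared within each library by the sign-flip test, 17 pairs in all: 10 chosen by function and the 9 neighbours in the order of the means, with 2 pairs in both sets. The smallest p that 5 libraries allow is 0.0625, so no pair could pass 0.05. Of the 17 pairs, 14 went 1 way in 5 of 5 libraries, with p = 0.0625 for each by the exact permutation test and 0.0759 after Benjamini-Hochberg adjustment. In all 14 the ranges of the 2 genes did not overlap. The neighbour pairs, 6 of them without overlap, were ordered by the means of these same libraries. Their direction, p-values and lack of overlap are therefore a description only. No share over other gene pairs was computed.

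Of 7 coactivators and other partners of HIF, 5 were above 1 FPKM and 2 below, beside 52.3% and 41.4% of all tested genes, and their median level was 3.05 FPKM. Cdk8, a Mediator kinase, stood at 13.7 ± 1.88 FPKM and the acetylase Crebbp at 10.3 ± 1.48, whereas its paralog Ep300 was at 1.801 ± 0.33. Cited2, which competes with HIF for these acetylases and is itself a HIF target, was at 3.05 ± 0.60, and the coactivator Ncoa1 was below the level at 0.702 ± 0.126 FPKM. With rescaled sums of 1000000 FPKM the Ncoa1 call was lost (log2 difference -0.09, limma adjusted p = 0.27).

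Among the 4 HIF hydroxylase genes, that of the asparaginyl hydroxylase had the highest mean. Hif1an (ENSMUSG00000036450, chromosome 19, 44562850 to 44576274), whose product blocks coactivator binding, was at 23.5, 27.6, 22.3, 22.1 and 22.4 FPKM, a mean of 23.6 ± 2.31 (limma adjusted p = 3.6e-10). Replicate 2 stood above the other libraries, which lay within 22.1 to 23.5 FPKM. Hif1an exceeded Hif1a in 5 of 5 libraries, by 1.28 to 2.56 times, and the Egln1 minus Hif1an difference was -1.55 ± 0.22 on the log2 scale.

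The prolyl hydroxylases that mark HIF for destruction were ordered Egln1, Egln2, Egln3. Egln1 (ENSMUSG00000031987, chromosome 8, 124908587 to 124949324), regarded as the main oxygen sensor, was at 6.44, 6.95, 8.04, 7.96 and 7.50 FPKM, a mean of 7.38 ± 0.68 (limma adjusted p = 2.4e-08). Egln2 (ENSMUSG00000058709, chromosome 7, 27158658 to 27166802) was at 4.33, 4.35, 4.22, 4.49 and 4.97 FPKM, a mean of 4.47 ± 0.29 (limma adjusted p = 2.8e-07). All 5 Egln1 values lay above all 5 Egln2 values.

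Egln3 (ENSMUSG00000035105, chromosome 12, 54178981 to 54203860), a family member known to be strongly induced by HIF, was at 0.906, 0.434, 0.492, 0.730 and 0.562 FPKM, a mean of 0.625 ± 0.192. Against 1 FPKM its log2(FPKM + 1) difference was -0.31 (SE 0.07, limma adjusted p = 0.0036). For its longest transcript of 2662 bases these values stand for about 50.9, 28.0, 25.0, 50.9 and 32 reads, and all 5 lay below 1 FPKM. With each library rescaled to a sum of 1000000 FPKM the call was lost (log2 difference -0.17, limma adjusted p = 0.09). Against a level of 0.5 FPKM the log2 difference was 0.11 (limma adjusted p = 0.18).

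Expressed as a share of the 3 transcripts, Egln1 held 59.1 ± 2.97%, Egln2 35.9 ± 2.19% and Egln3 5.04 ± 1.69% (SD, n = 5). The Egln3 share ran from 3.70% in replicate 2 to 7.76% in replicate 1. Egln1 exceeded Egln3 by 7.11 to 16.3 times and Egln2 exceeded it by 4.78 to 10.02 times, each in 5 of 5 libraries. These shares do not depend on how a library is scaled.

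**Figure D2:**
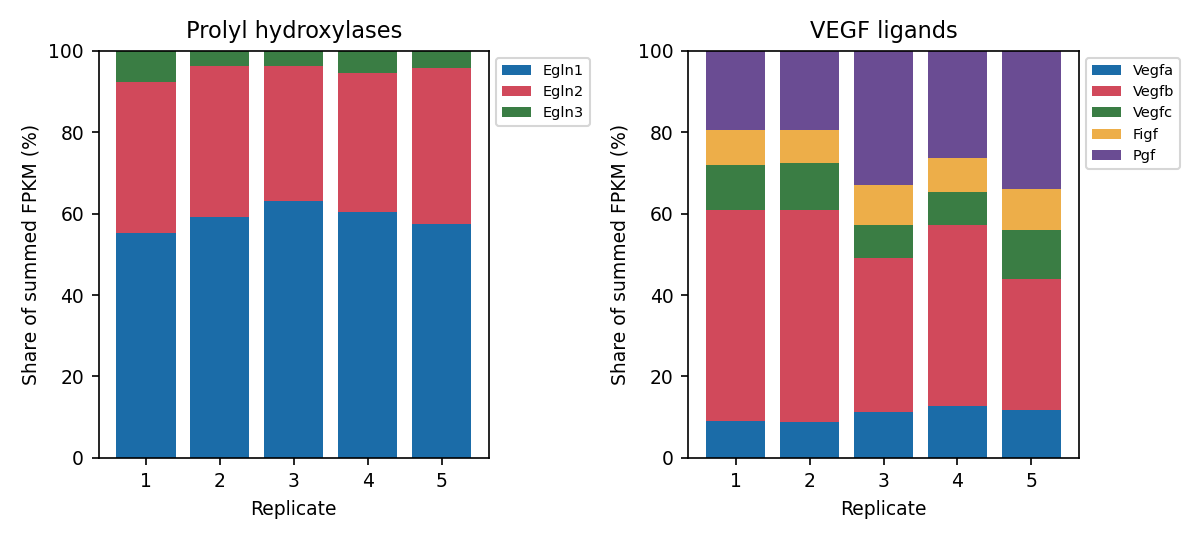
Share of the summed FPKM (%) held by each of the 3 prolyl hydroxylase genes (left) and each of the 5 VEGF ligand genes (right) in replicates 1 to 5. Egln1 holds between 55.2% and 63.1% on the left, and Vegfa between 8.70% and 12.7% on the right.

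Vhl (ENSMUSG00000033933, chromosome 6, 113623959 to 113631633), which recognises the hydroxylated alpha subunit, was at 10.03, 9.03, 8.49, 7.91 and 7.69 FPKM, a mean of 8.63 ± 0.94 (limma adjusted p = 1.5e-08). Its range overlapped that of Egln1, the next gene in order, and Vhl was the higher one in 4 of 5 (0.20 ± 0.25 on the log2 scale, p = 0.125 by exact sign-flip permutation, adjusted 0.133). The other subunits of its ubiquitin ligase, which also serve other ligases, were far higher. Elongin B (listed as Tceb2) stood at 520 ± 18.8 FPKM and the RING subunit Rbx1 at 247 ± 13.3. Elongin C (Tceb1) was at 223 ± 20.4 and the scaffold Cul2 at 63.1 ± 2.96. All 4 were above 1 FPKM, as were 52.3% of all tested genes. The Vhl minus Cul2 difference was -2.74 ± 0.16, and Vhl reached 0.116 to 0.160 of the Cul2 level in each library.

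Of 6 regulators of the turnover of HIF or its hydroxylases, other than this ligase, 5 were above 1 FPKM and 1 below. The shares over all tested genes were 52.3% above and 41.4% below. Rack1 (listed as Gnb2l1), a ribosomal scaffold protein that also binds the alpha subunit, stood at 2147 ± 207 FPKM and the SUMO protease Senp1 at 41.3 ± 4.82. Usp20 (5.30 ± 0.99), Siah1a (4.07 ± 0.44) and Os9 (3.75 ± 0.62) were also above it. Siah2, a ubiquitin ligase for prolyl hydroxylases, was below at 0.559 ± 0.133 FPKM. Of 10 other oxygen-dependent dioxygenases 9 were above 1 FPKM and none below, beside the same shares (median level 7.48 FPKM). Ado, a thiol oxidase that senses oxygen through the N-degron pathway, led at 129 ± 11.9 FPKM, ahead of the histone demethylases Kdm5a at 41.1 ± 1.81, Kdm3a at 19.2 ± 0.49 and Kdm5c at 13.5 ± 2.16. Kdm4b and Kdm4a were at 2.69 ± 0.52 and 1.64 ± 0.10, and P4htm, a prolyl hydroxylase of the endoplasmic reticulum, was called neither way at 0.983 ± 0.349 FPKM.

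Of the 4 members that are themselves known HIF targets (Bnip3, Egln1, Vegfa and Egln3), Bnip3 was the highest of all 10 genes and Vegfa and Egln3 were near or below 1 FPKM. Bnip3 (ENSMUSG00000078566, chromosome 7, 138890836 to 138909519), a mitochondrial outer membrane protein that recruits the autophagy machinery, was at 115, 129, 113, 124 and 121 FPKM, a mean of 121 ± 6.44. Its log2(FPKM + 1) was 5.93 higher than that of 1 FPKM, a scale that understates the ratio of the FPKM values (SE 0.04, limma adjusted p = 4.3e-12) and higher than 93.9% of tested genes. Replicate 2 was highest and replicate 3 lowest, and its SD of 0.08 on the log2 scale was smaller than that of most genes (median 0.16 over the 10983 genes averaging 1 FPKM or more).

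Vegfa (ENSMUSG00000023951, chromosome 17, 46016993 to 46032369), the vessel growth factor that is a textbook HIF target, was at 0.847, 0.670, 1.29, 1.25 and 1.21 FPKM, a mean of 1.05 ± 0.28. Its call was neither above nor below (log2 difference from 1 FPKM 0.03, SE 0.09, limma adjusted p = 0.77). Replicates 1 and 2 lay below 1 FPKM and the other libraries above it. Taking its longest transcript of 3451 bases, the values stand for about 57.0 to 115 reads, so the low level is not one of single reads. Vegfa and Egln3, neighbours in order, overlapped, and Vegfa was the higher one in 4 of 5 (0.33 ± 0.26, p = 0.125 by exact sign-flip permutation, adjusted 0.133).

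The promoters of the members were searched for the core letters that HIF is known to bind, ACGTG and GCGTG, on both strands in the 250 bases before the transcription start (RefSeq promoters, GRCm38.p6, the assembly of mm10). A place where the letters read on both strands was counted once. Of the members, 9 had an entry (Epas1 did not), and 7 of these held the letters in at least 1 listed promoter. For comparison, 38.6% of all 32851 promoters held them. Counted by gene, 41.5% of all 27025 genes with an entry had such a promoter. Among the 7746 genes called above 1 FPKM that have an entry, 63.4% did. Both motifs contain CG, and base composition was not adjusted for. Bnip3 had 4 places, as did the upstream promoter of Egln2, and 4.87% of all promoters had 3 or more. Hif1a and Egln1 had 2 each, Arnt and Egln3 1 each, and Hif1an and Vhl none. Of the 2 Vegfa promoters listed, 1 had 2 places and the other none, which says only that the letters are not in that window.

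Stretches of 3 promoters are shown because they belong to the highest member, the main alpha subunit and the lowest member with an entry. They are printed 5′ to 3′ on the strand of the gene, in lower case with the motif letters of either strand in capitals. The Bnip3 stretch is chr7:138909525-138909635 (minus strand), the Hif1a stretch chr12:73907720-73907813 (plus strand) and the Egln3 stretch chr12:54204087-54204115 (minus strand).
Bnip3: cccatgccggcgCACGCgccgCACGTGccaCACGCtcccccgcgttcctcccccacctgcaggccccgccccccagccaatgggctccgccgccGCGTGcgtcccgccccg
Hif1a: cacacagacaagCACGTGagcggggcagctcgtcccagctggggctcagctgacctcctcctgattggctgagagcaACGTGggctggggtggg
Egln3: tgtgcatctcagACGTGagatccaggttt

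In Bnip3 the motif letters clustered, with the ACGTG read on both strands at 108 to 103 bases before the start (written -108 to -103) flanked by GCGTG on the minus strand at -117 to -113 and at -99 to -95. In Hif1a the letters stood at -135 to -130 and at -70 to -66, and in Egln3 at -229 to -225. The RefSeq start used for Hif1a lies inside the gene interval given above. Bases before the first base of that interval were not searched. The order of the genes by motif places was not their order by level: Hif1an, with none, was the second highest member.

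Known HIF targets outside the 10 genes were described in 2 lists, and the difference between the lists was not tested. All 19 targets of glucose metabolism were above 1 FPKM, beside 52.3% of all tested genes, and their median level was 173 FPKM. Eno1 (6966 ± 472), Ldha (3821 ± 159), Aldoa (2800 ± 132) and Gapdh (2702 ± 169) led, and Aldoc (4.04 ± 1.55), Pfkfb4 (3.61 ± 0.83) and Hk1 (3.55 ± 0.97) were lowest. Genes of glycolysis are also driven by factors other than HIF, and several have processed copies in the mouse genome between which reads could be split.

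Of the 25 targets with other functions 17 were above 1 FPKM, 5 below and 3 neither way (median level 3.98 FPKM). Over all tested genes 52.3% were above and 41.4% below. Bnip3l, a mitophagy receptor, stood at 522 ± 27.9 FPKM, and the mitochondrial proteins Fam162a and Higd1a at 109 ± 6.60 and 76.3 ± 3.97, followed by the transferrin receptor Tfrc at 72.2 ± 5.95. The collagen cross-linking enzyme Lox (0.0831 ± 0.0843) and Ddit4, an inhibitor of mTOR (0.143 ± 0.0709), were among those below. Adm, a vasodilator peptide (0.456 ± 0.18), and Car9, a carbonic anhydrase widely used as a hypoxia marker (0.56 ± 0.178), were also below 1 FPKM. Adm and Car9 were named after their values were seen. Set among the 44 genes of both lists and the 4 target members, Bnip3 ranked 13 of 48, Egln1 28, Vegfa 40 and Egln3 43. Of the 44 genes 13 exceeded 100 FPKM and 7 lay below Vegfa.

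**Figure D3:**
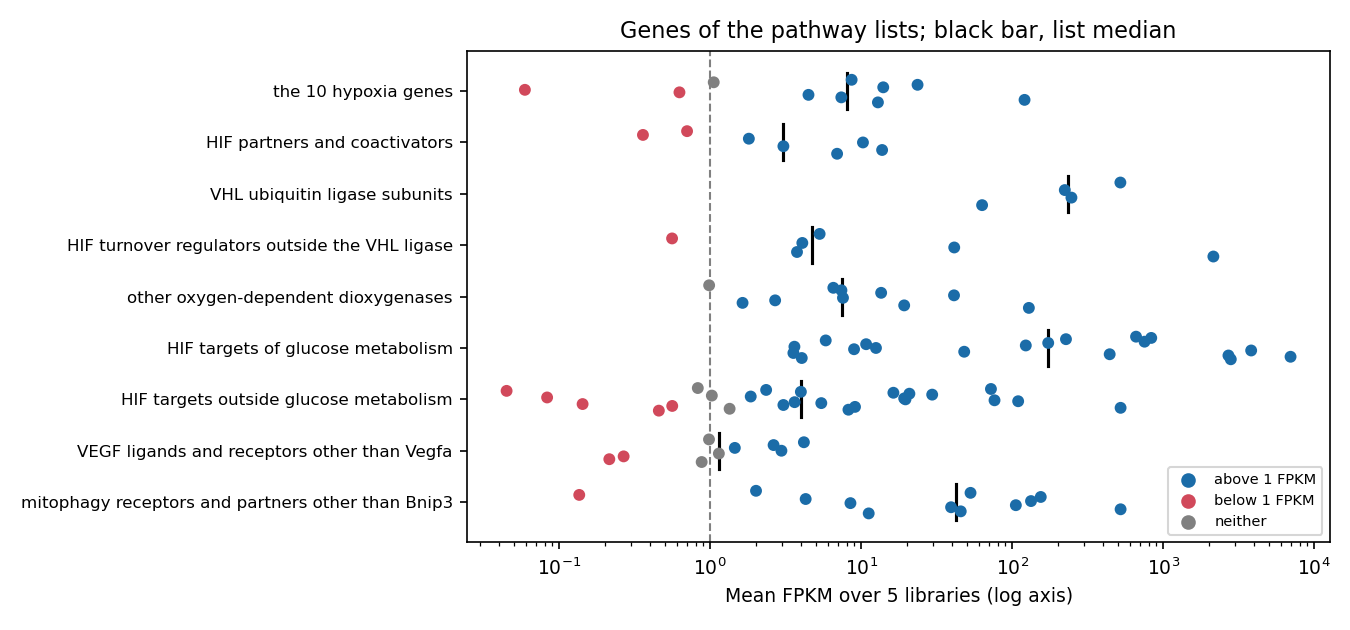
Mean FPKM over the 5 libraries (log axis) of each gene in the hypoxia set and 8 related lists, coloured by its call against 1 FPKM, with the list median as a black bar. All 19 glucose metabolism targets and all 4 other VHL ligase subunits lie to the right of 1 FPKM, while 2 VEGF pathway genes and 5 other HIF targets are called below it.

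Vegfa was not the highest VEGF ligand transcript. Vegfb, which acts through Flt1, stood at 4.17 ± 0.57 FPKM and Pgf, placental growth factor, at 2.63 ± 0.99, both above 1 FPKM. Vegfc (0.981 ± 0.164) and Figf, which encodes VEGF-D (0.877 ± 0.191), were called neither way. Vegfa held 10.7 ± 1.74% of the summed ligand FPKM, Vegfb 43.7 ± 8.76% and Pgf 26.4 ± 7.06%. Vegfa minus Vegfb was -1.34 ± 0.29 on the log2(FPKM + 1) scale, with Vegfb higher in 5 of 5 libraries. In FPKM, Vegfa was at 0.166 to 0.369 of the Vegfb level. The receptors Flt1 (0.215 ± 0.104) and Flt4 (0.267 ± 0.098), which are typical of endothelium, were below 1 FPKM and Kdr, the main Vegfa receptor, was called neither way at 1.14 ± 0.45. The coreceptors Nrp1 (2.96 ± 0.67) and Nrp2 (1.45 ± 0.26), also found on neural cells, were above. In all, 4 of these 9 genes were above and 2 below, beside 52.3% and 41.4% of all tested genes. Against a level of 2 FPKM 2 were above, and against 0.5 FPKM 7 were. Of the 8 endothelial markers, Cdh5, Tie1 and Cldn5 were below 1 FPKM (0.301 ± 0.229, 0.087 ± 0.0649 and 0.173 ± 0.0753), whereas Egfl7, Pecam1 and Esam were above (11.4 ± 1.34, 3.32 ± 0.46 and 2.46 ± 1.48) and Emcn (2.62 ± 1.90) and Tek (1.26 ± 0.81) were called neither way. Emcn was called above with rescaled sums (limma adjusted p = 0.035) and without replicate 1 (adjusted p = 0.016) or replicate 2 (adjusted p = 0.032).

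Of 12 mitophagy genes around Bnip3, 11 were above 1 FPKM and 1 below (median level 42.5 FPKM). All tested genes were above in 52.3% and below in 41.4% of cases. Bnip3l, the closest paralog, exceeded Bnip3 in 5 of 5 libraries: Bnip3 was at 0.221 to 0.246 of the Bnip3l level, and the difference was -2.10 ± 0.07 on the log2 scale. Transcripts of the Atg8 family, whose proteins these receptors bind on the autophagosome, were high for Map1lc3b (154 ± 13.0), Gabarapl2 (133 ± 8.08) and Gabarap (106 ± 6.48) and low for Map1lc3a (4.28 ± 0.80). The kinase Pink1, of the ubiquitin-driven route, was at 2.01 ± 0.39 FPKM. Its partner ligase Park2 was below 1 FPKM at 0.409, 0.0715 and 0.198 FPKM in replicates 1, 2 and 4, and replicates 3 and 5 list it at 0.

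The members did not move as a block between libraries. Hif1a, Vegfa and Egln1 were lowest in replicates 1 and 2, and all 3 were highest in replicate 3. Arnt, Vhl and Hif1an were highest in replicates 1 and 2. These statements held with each library rescaled to a sum of 1000000 FPKM and by its median ratio. The 10983 genes averaging 1 FPKM or more served for comparison. Replicates 1 and 2 were the 2 lowest libraries for 22.4% of them and the 2 highest for 13.8%. With sums of 1000000 FPKM these shares were 15.7% and 21.1%, and with the median ratio 18.2% and 18.3%. The share of genes highest in replicate 3 was not computed, so that part of the pattern is a description only. The deviation of Hif1a from its own mean ran from -0.33 in replicate 2 to 0.33 in replicate 3 on the log2 scale, and that of Vegfa from -0.29 to 0.17 in the same libraries. The SD of Hif1a (0.27) was the largest among the 8 members averaging 1 FPKM or more, and 82.5% of genes had a smaller one. For Bnip3 and Egln2 the SD was 0.08, larger than that of 8.91% and 8.65% of genes.

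Marker lists differed across the same libraries, taken over their genes averaging 1 FPKM or more (9 mesenchyme, 5 endothelial and 8 neural progenitor genes). The mesenchyme list's median deviation was -0.84 and -0.37 in replicates 1 and 2 and 0.47, 0.23 and 0.35 in replicates 3 to 5, and the endothelial list's was -0.48, -0.19, 0.24, 0.61 and 0.48. The neural progenitor list's was 0.19, 0.08, -0.22, -0.08 and -0.02, and the neuron list's (5 genes) 0.34, 0.22, -0.32, -0.0060 and -0.07. These medians do not hold for every gene of a list. The progenitor marker Vim and the neuron marker Gap43 were lowest in replicates 1 and 2. The endothelial markers Egfl7 and Pecam1 did not follow the endothelial median. The surface ectoderm list (7 genes) did not set replicates 1 and 2 together, at -0.31, 0.36, 0.26, -0.14 and -0.18. The part of these cell types in the levels of Hif1a, Vegfa, Egln1, Arnt, Vhl and Hif1an was not tested. In such bulk samples more cells of a type and more RNA per cell cannot be told apart. By root mean square difference of the 5 deviations, the genes most like Hif1a were Smim13 (0.02), Slc35e1 (0.03) and Tmpo (0.03 on the log2 scale), at 5.41 ± 1.26, 6.16 ± 1.41 and 40.0 ± 7.45 FPKM. Over 5 libraries such nearness is a description only.

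**Figure D4:**
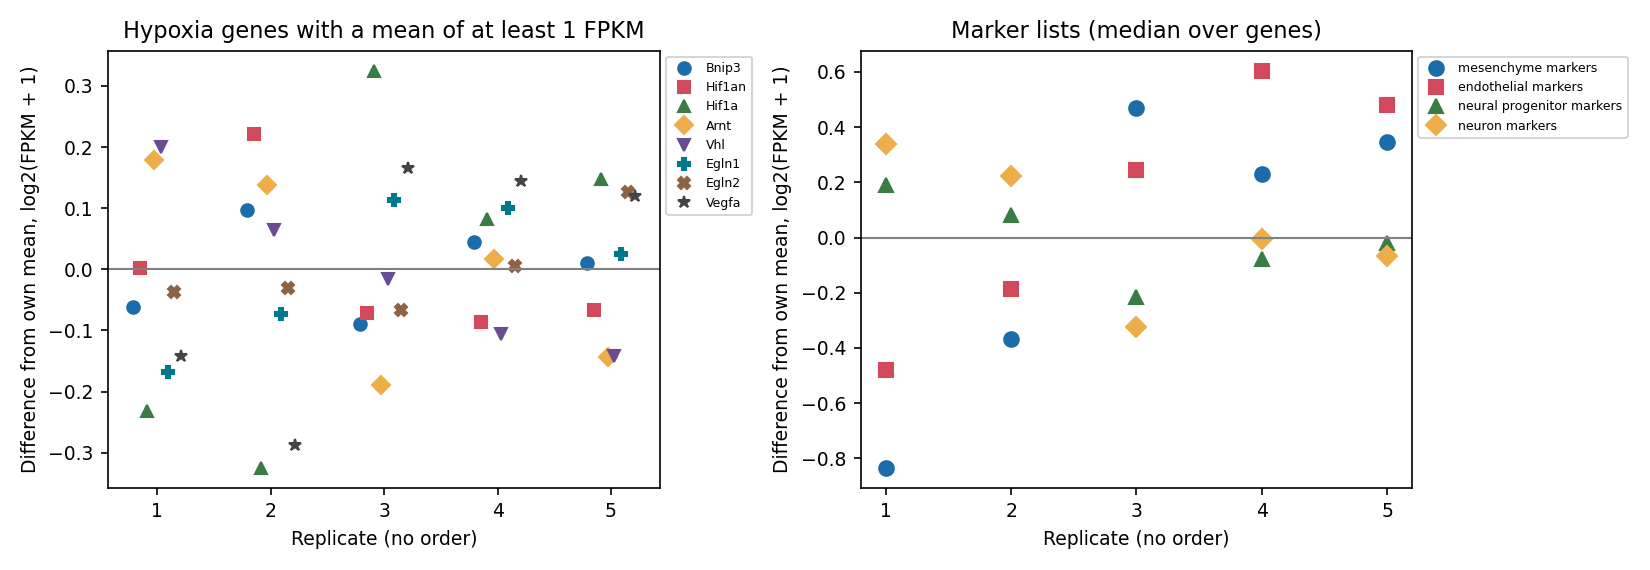
Difference of each library from the gene's own mean of log2(FPKM + 1) for the 8 hypoxia genes averaging 1 FPKM or more (left), and the median difference over the genes of 4 of the 7 marker lists (right), by replicate number, which carries no order. Hif1a is at -0.33 in replicate 2 and 0.33 in replicate 3, and the mesenchyme list at -0.84 in replicate 1 and 0.47 in replicate 3.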

How the data were processed

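RNA of 5 NEC libraries was sequenced as single-end reads from amplified poly-dT cDNA, per the labels' protocols, with no molecular identifiers described. The authors deposited FPKM per gene and library. Cuffdiff 2.2.1, TopHat2 2.0.11, CASAVA 1.8, cutadapt and the build mm10 were used, per the submitters' processing notes, which state no roles; the annotation release is not given in the sources used here. Columns were matched to samples by replicate number. FPKM summed to 747034 to 847625 per library. Low values of single-transcript genes implied totals, in units of 1000000 reads, of 20.6 to 28.3, so 1 FPKM in 2000 bases stood for 37.1 to 51.0 reads. Read numbers in the text are estimates made from these totals after taking 200 bases off the longest transcript; they cover counting only.

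limma 3.58.1 (R 4.3.3) fitted an intercept to log2(FPKM + 1) with a variance trend over the 19706 genes above 0 in at least 1 library, two-sided against 1 FPKM; the test was tested on simulated data. On this scale ratios to 1 FPKM and ratios between genes are understated. Coordinates are from GENCODE M21 (mm10). Strand was not stated to be kept, and exons of Hif1a, Bnip3, Egln2 and other genes overlap those of other genes. Opposite an antisense gene lie 330 of 5896 exonic bases of Hif1a and 504 of 2265 of Bnip3. Hif1a also shares 148 exonic bases with Gm49321, a protein-coding gene on the same strand. Reads in such overlaps cannot be told apart.

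The members and lists were chosen with earlier results of these data known. Named were the members, both genes of each pair, all genes of lists of up to 7, the 4 highest and 3 lowest of longer lists, the 3 highest markers of each type and the 3 genes nearest in pattern to the most variable member; others were named after their values were seen. A gene that the rule names is not reported here. Alternatives were pseudocounts of 0.5 and 0.1, 2 rescalings, levels of 0.5 and 2 FPKM, other filters and variance settings, and leaving out each library.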

Additional observations from a re-analysis of the deposited data

Results flagged for a closer look

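Among the 85 named genes, 5 had 1 library apart from the other libraries by a gap of more than 0.71 of the whole range on the log2(FPKM + 1) scale, and chance gives about 1 such gene in 20. Hif1an was highest in replicate 2 at 27.6 FPKM, against 22.1 to 23.5 in the others. Lox was highest in replicate 3 at 0.228 FPKM, against 0.00895 to 0.0661. Map1lc3a was lowest in replicate 4 at 2.91 FPKM, against 4.42 to 5.01. The myeloid markers Csf1r and Ptprc were highest in replicate 1, at 0.2145 FPKM against 0.0707 to 0.106 and at 0.2745 FPKM against 0 to 0.0179.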

How the results depend on the processing

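Of the 10 hypoxia genes, 2 were below 1 FPKM; the number was 1 with each library rescaled to a sum of 1000000 FPKM, 1 against a level of 0.5 FPKM and 1 with only genes of a mean of at least 0.1 FPKM, a filter that removes Epas1. Rescaling to that sum moved the median log2 level of expressed genes by 0.302. Genes below 1 FPKM numbered 3495 with the same filter, against 8167, since fewer low genes were tested. VEGF pathway genes above the level were 7 at 0.5 FPKM and 2 at 2 FPKM, against 4. Log2 differences that changed sign are genes near the level. Against 0.5 FPKM these were Egln3 (0.11), Ncoa1 (0.18), Siah2 (0.051), P4htm (0.38) and Figf (0.32). Against 2 FPKM they were Vegfa (-0.56, limma adjusted p = 0.00046), Ep300 (-0.11), Kdm4a (-0.19), Nrp2 (-0.30), Pink1 (-0.0052), Hbb-y (-0.18), Hbb-bh1 (-0.35) and Alas2 (-0.45). With rescaled sums they were P4htm (0.14) and Figf (0.0626). Calls lost with rescaled sums were Egln3 and Ncoa1, and calls gained were Emcn, Hbb-y and Alas2. Leaving out each library gave -0.0142 to 0.0989 for Vegfa, -0.107 to 0.0692 for P4htm, -0.0133 to 0.383 for Hbb-bh1 and -0.0321 to 0.212 for Hif1a minus Arnt. No paired analysis was possible because the 5 libraries form 1 group. Epas1 rests on about 1.04 to 16.6 reads per library, so depth limits its values.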

Other observations

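Epo, the hormone of red cell production and a classical HIF target, was above 1 FPKM at 8.68, 4.68, 2.36, 6.31 and 5.15 FPKM in replicates 1 to 5, a mean of 5.44 ± 2.32 (1.60 above 1 FPKM on the log2 scale, SE 0.20, limma adjusted p = 0.00011). It was chosen after its values were seen. Its receptor Epor was below 1 FPKM at 0.107, 0.164, 0.0595, 0.0866 and 0 FPKM. The annotated Epo gene shares 104 of its 855 exonic bases with Gnb2, a G protein subunit on the same strand at 10.2 ± 1.03 FPKM, so the Epo value is uncertain where reads could be split. Of 7 erythroid markers none was above 1 FPKM, 2 were below, and Hbb-bt was listed at 0 in all 5 libraries. Among all tested genes 52.3% were above and 41.4% below. Hbb-y, Hbb-bh1 and Alas2 were the highest at 1.79 ± 1.06, 1.55 ± 1.26 and 1.23 ± 0.43 FPKM. With rescaled sums Hbb-y (limma adjusted p = 0.021) and Alas2 (adjusted p = 0.042) were called above 1 FPKM, and Hbb-y also without replicate 1 (adjusted p = 0.025) and with the filter at a mean of 0.1 FPKM (adjusted p = 0.048). Of 6 myeloid markers Cd68 was above at 2.21 ± 0.95 FPKM, 3 were below, and Aif1 and Tyrobp were listed at 0.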
